A study of Mus musculus with 4 samples.

Results

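The 9 genes described here encode enzymes that acetylate histones and proteins that bind acetylated lysines. *Ep300* and *Crebbp* encode the paralogous coactivators p300 and CBP, *Kat2a* and *Kat2b* the SAGA and ATAC acetyltransferases GCN5 and PCAF, and *Kat5*, *Kat6a* and *Kat7* the MYST family enzymes TIP60, MOZ and HBO1. *Brd2* and *Brd3* encode readers of the BET family, which bind acetylated histones through paired bromodomains. The genes were chosen by name, and all 9 were found among the 20642 genes of the deposited table, each as 1 transcript. *Kat6a* and *Kat7* were listed there under their older symbols *Myst3* and *Myst2* and were matched through their transcript identifiers. All 9 belonged to the 12705 active genes, those with promoter-proximal reads and more than 4 normalized gene body reads per kb on average.

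Acetylation of histone tails neutralizes the charge of lysines and offers a docking site for bromodomains, and deacetylases such as HDAC3 remove it. HDAC3 works within the NCoR and SMRT corepressor complexes and is known in liver as a regulator of lipid metabolism. The enzymes that add the mark, the readers that bind it and the deacetylases that remove it thus all act on lysine acetylation.

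In PRO-seq (precision nuclear run-on sequencing), biotin marks the RNA that engaged polymerases extend in isolated nuclei, so it reads transcription in progress and not the amount of mRNA. The 4 libraries came from livers of C57BL/6 mice on day 14, and all mice, controls included, carried the Alb-Cre transgene. WT mice (libraries WT1 and WT2) were *Hdac3* +/+, and *Hdac3* KO mice (KO1 and KO2) were *Hdac3* F/F or F/-. The albumin promoter drives Cre in hepatocytes, and deletion in other cells of the liver was not tested. The F/- mice carried a null allele besides the floxed one. Each library was a pool of nuclei from several mice, which hides the spread between mice, and p-values measure the spread between 2 pools a group. Promoter-proximal reads are those in the 50 bp window with most reads within 500 bp of the transcription start site (TSS), and gene body reads are those from 1 kb after the TSS to the termination site. Both are given as normalized reads, the counts times 1 factor per library.

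The libraries held 16628518 to 26190040 reads on genes. The share of these reads in promoter-proximal windows was 10.3% in WT1 and 9.38% in WT2, against 13.6% in KO1 and 17.0% in KO2. The median promoter-proximal change of all active genes was 0.56 on the log2 scale (KO over WT), whereas the median gene body change was -0.09. Each promoter-proximal change below is therefore also given relative to that median. *Hdac3* itself had 665, 648, 609 and 582 normalized gene body reads in WT1, WT2, KO1 and KO2, with a log2 fold change of -0.14 (limma adjusted p = 0.413), so that the genotypes rest on the labels. Among cell type markers, the summed gene body reads of 6 hepatocyte markers were 280862 to 281829 in WT and 131184 to 136215 in KO, and 4 of the 6 were called down. Those of 6 stellate cell markers were 9184 to 10317 in WT and 18302 to 19968 in KO, with all 6 called up, and those of 5 endothelial markers were 47640 to 51572 in WT and 80297 to 89955 in KO, with 4 called up. The 4 erythroid markers summed to 500.2 to 616 reads in WT and 176 to 217 in KO and were all called down. Of 6 Kupffer cell markers 0 were called, of 4 lymphocyte markers 1 was called up, and of 4 cholangiocyte markers 2 were active and 1 was called down. The part of these differences in the values of the 9 genes was not tested, and fewer nuclei of a type cannot be told apart from fewer polymerases per nucleus.

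The promoters of the 2 genes whose promoter-proximal reads rose past the test, *Ep300* and *Kat7*, differed in sequence. They are shown beside those of *Kat2a*, the gene with the next largest difference, and of *Crebbp*, the paralog of *Ep300*. All are taken from RefSeq on GRCm38.p6 and run 5' to 3' on the strand of the gene. Capitals mark matches to CCAAT, the box bound by NF-Y, or GGGCGG, the core of the box bound by SP1 family factors. The 250 bases before the TSS are printed for *Kat7* (chr11:95310247-95310496, minus strand) and *Kat2a* (chr11:100712468-100712717, minus strand), where the annotation places no exon of a transcript on the same strand. For *Ep300* (chr15:81586088-81586117, plus strand, positions -126 to -97) and *Crebbp* (chr16:4213410-4213439, minus strand, positions -35 to -6) only 30 bases around the matches are printed, since transcripts of both genes that start further upstream place exons there.
Kat7: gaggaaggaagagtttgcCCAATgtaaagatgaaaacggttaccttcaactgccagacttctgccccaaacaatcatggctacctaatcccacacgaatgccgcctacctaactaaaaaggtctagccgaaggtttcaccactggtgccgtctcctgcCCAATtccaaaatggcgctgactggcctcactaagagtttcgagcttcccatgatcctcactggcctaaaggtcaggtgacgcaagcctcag
Kat2a: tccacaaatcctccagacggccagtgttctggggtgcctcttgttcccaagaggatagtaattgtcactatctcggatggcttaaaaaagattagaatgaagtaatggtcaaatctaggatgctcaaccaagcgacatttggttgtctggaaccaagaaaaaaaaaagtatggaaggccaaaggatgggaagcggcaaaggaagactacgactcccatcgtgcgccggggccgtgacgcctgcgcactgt
Ep300: ggaggaggaggaGGGCGGctctcagggtgg
Crebbp: cggcggccggGGGCGGGCGGtgagcgctgc

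The *Kat7* promoter held 2 CCAAT boxes, starting at positions -232 and -92 relative to the TSS, with a GC content of 50.8% and 8 CpG dinucleotides. *Kat2a* held none of the 8 motifs searched on both strands, with a GC content of 48.8% and 11 CpG. The *Ep300* promoter held 1 GGGCGG match at a GC content of 73.2% and 25 CpG, and that of *Crebbp* held 2 overlapping matches at a GC content of 84.0% and 44 CpG. Across the 32851 promoters of the RefSeq table, CCAAT was found in 33.8% and GGGCGG in 32.7%, with a median GC content of 52.4% and a median of 6 CpG. Promoters of 8 of the 9 genes were matched in this table. Over these 8, CCAAT was found in *Kat7*, *Kat5* and *Kat2b*, GGGCGG in *Ep300*, *Crebbp* and *Brd3*, the E-box CACGTG in *Kat5* alone (6.02% of all promoters) and the NRF1 motif GCGCATGC in *Brd2* alone (2.26%), as an overlapping pair on both strands. The ETS motif CCGGAAGT, the CRE TGACGTCA, the TATA box TATAAA and the YY1 motif AAGATGGC were found in 0 of the 8, against 2.88%, 1.55%, 12.4% and 1.56% of all promoters. Annotated exons on the strand of the gene also overlap the windows of *Kat2b*, *Kat5*, *Brd2* and *Brd3*. The most upstream annotated starts of these genes lie 110, 143, 27 and 32264 bp from the RefSeq start used. The matches describe the letters of the window and were not tested as sites.

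In both genotypes the 9 genes were transcribed at very different densities. Along the gene body, in normalized reads per kb, *Brd2* was the highest, with 693, 819, 706 and 759 in WT1, WT2, KO1 and KO2, above 99.5% of active genes. *Kat5* (86.9 to 130 over the 4 libraries) and *Brd3* (86.7 to 116) followed, and their ranges overlapped. *Ep300* (68.1 to 77.1), *Kat7* (68.7 to 73.6), *Crebbp* (62.5 to 78.3) and *Kat6a* (63.6 to 70.7) lay so close together that their order was not resolved by the spread over libraries. *Kat2b* (47.8 to 62.6) lay below them, though its highest library overlapped the lowest of *Crebbp*. *Kat2a* (23.6 to 29.7) was the lowest, above 38.4% of active genes, and the mean density of *Brd2* was 26.6 times that of *Kat2a*.

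The pausing index, the density in the promoter-proximal window divided by that of the gene body, ordered the genes differently. *Kat2a* had the highest mean, with indices of 133, 126, 174 and 198 in WT1, WT2, KO1 and KO2, and *Brd3* and *Kat7* were next, with overlapping ranges. *Brd2* had the lowest, 3.54, 2.78, 4.48 and 4.52, below all but 3.45% of active genes. *Crebbp* was close to it, with indices of 3.22, 7.27, 3.07 and 6.32 from only 10 to 26 recovered promoter-proximal reads per library. The gene body length of *Crebbp* in the deposited table differed by 2714 bp from the RefSeq entry that gave its sequence. The TSS that the authors used for *Crebbp* is therefore not known here. Its most upstream annotated start lies 593 bp from the start of the RefSeq entry. Whether the 500 bp searched reached that annotated start is not known. The part of the annotated start in the low promoter-proximal value of *Crebbp* was not tested. The most upstream annotated start of *Ep300* lies 863 bp from its RefSeq start, beyond the 500 bp searched. An exon of another annotated gene, *Gm23880*, overlaps the 250 bases before that RefSeq start on the same strand. The part of either in the *Ep300* values was not tested. From *Kat2a* down to *Ep300* (19.9 to 54.0) the range of each gene overlapped that of the next in the order, whereas *Crebbp* and *Brd2* lay below every library of *Ep300*.

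**Figure D1:**
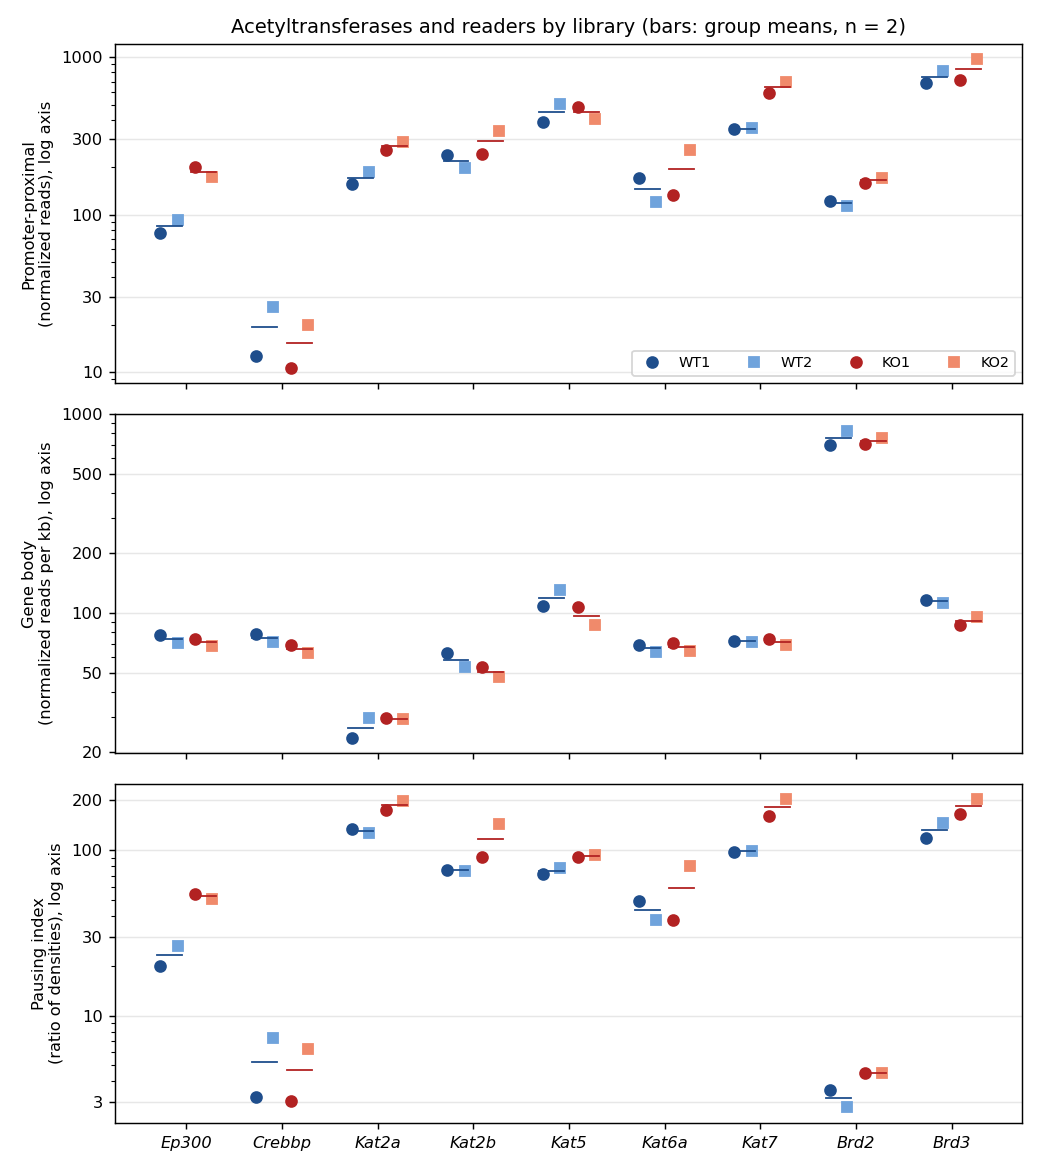
Promoter-proximal normalized reads, gene body density in normalized reads per kb and pausing index of the 9 genes, each on a log axis, with 1 point per library (blue for WT, red for KO) and a bar for each group mean (n = 2). The promoter-proximal points of *Ep300* and *Kat7* do not overlap between KO and WT, while their gene body densities overlap.

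p300 and CBP are the broadest of these coactivators, acetylating histones at enhancers and promoters. *Ep300* (chromosome 15, 81586209-81652077 on GRCm38, plus strand) had normalized promoter-proximal reads of 76.9 (WT1), 92 (WT2), 200.5 (KO1) and 173 (KO2). Both KO libraries lay above both WT libraries, and the fold change between the group means of the log2 values was 2.20. The log2 fold change was 1.14 with a standard error (SE) of 0.34, and *Ep300* was called up (adjusted p = 0.00673 from limma over all active genes). It stood 0.58 above the median change of active genes, higher than 88.9% of them. Its gene body reads did not follow. They were 4999 and 4548 in WT and 4818 and 4417 in KO, a log2 fold change of -0.05 (SE 0.11, limma adjusted p = 0.760). The pausing index of *Ep300* accordingly was 19.9 and 26.2 in WT and 54.0 and 50.8 in KO, a log2 difference of 1.19 (SE 0.44) that fell short of the threshold (limma adjusted p = 0.0531).

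*Crebbp* (chromosome 16, 4081334-4213957, minus strand) showed no such difference. It had 12.6 and 26 promoter-proximal reads in the WT libraries and 10.6 and 19.7 in the KO libraries, and the groups overlapped. Their log2 fold change was -0.31 (SE 0.44, limma adjusted p = 0.590). Relative to the median of active genes this was -0.87, the farthest of the 9 genes from that median, and higher than 9.08% of active genes. Along the gene body *Crebbp* had 10048 and 9181 reads in WT and 8884 and 8018 in KO. Both KO libraries lay below both WT libraries, with a log2 fold change of -0.19 (SE 0.11, limma adjusted p = 0.193).

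Since the scaling factor of a library nearly drops out of a ratio within it, *Ep300* and *Crebbp* were also compared library by library. The ratios were taken on normalized reads plus 1, so that the factor does not cancel fully where reads are few. The promoter-proximal log2 ratio of *Ep300* over *Crebbp* was 2.52 in WT1 and 1.78 in WT2, against 4.12 in KO1 and 3.07 in KO2, a difference of 1.44 between the genotypes. In gene bodies it was -1.01 in both WT libraries and -0.88 and -0.86 in KO1 and KO2. Both ratios were higher in both KO libraries, and the exact permutation test gave p = 0.333 (two-sided), the smallest value that 2 libraries against 2 allow. Over the 8 ratios compared, 4 pairs of genes in 2 regions, the adjusted p was 0.667 (exact permutation test). The promoter-proximal ratio rests on the few reads of *Crebbp*.

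GCN5 and PCAF are alternative catalytic subunits of SAGA and ATAC. *Kat2a* (chromosome 11, 100704746-100712485, minus strand) had 157 and 186 promoter-proximal reads in WT and 258 and 288 in KO, without overlap. The log2 fold change of 0.67 (SE 0.32) did not pass (limma adjusted p = 0.0906) and lay 0.11 above the median of active genes. Its gene body is short and held 158, 198, 199 and 196 normalized reads in WT1, WT2, KO1 and KO2, with a log2 fold change of 0.16 (SE 0.18, limma adjusted p = 0.524). *Kat2b* (chromosome 17, 53566774-53672721, plus strand) had 237 and 199 promoter-proximal reads in WT and 243 and 342 in KO. The KO libraries were again above both WT libraries, KO1 by only a few reads, and the log2 fold change was 0.40 (SE 0.31, limma adjusted p = 0.303), -0.16 relative to the median of active genes. In the gene body *Kat2b* had 6560 and 5575 reads in WT and 5594 and 5012 in KO, which overlapped, with a log2 fold change of -0.19 (SE 0.11, limma adjusted p = 0.190). The promoter-proximal log2 ratio of *Kat2a* over *Kat2b* overlapped between the genotypes (-0.59 and -0.10 in WT, 0.09 and -0.24 in KO; exact permutation p = 0.667). In gene bodies the ratio was -5.36 and -4.81 in WT and -4.80 and -4.67 in KO, higher in both KO libraries by 0.35 on average (exact permutation p = 0.333, adjusted p = 0.667).

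Of the MYST enzymes, HBO1 acetylates histones H3 and H4 with JADE or BRPF scaffold proteins. *Kat7* (chromosome 11, 95271853-95310246, minus strand) had 349.9 and 354 promoter-proximal reads in WT and 589.8 and 698 in KO. The WT libraries lay close together and both KO libraries well above them. The log2 fold change was 0.86 (SE 0.30) and *Kat7* was called up (limma adjusted p = 0.0197), 0.30 above the median of active genes and above 75.7% of them. Its gene body reads were 2685 and 2683 in WT and 2753 and 2569 in KO. They overlapped, with a log2 fold change of -0.01 (SE 0.11, limma adjusted p = 0.935). The pausing index of *Kat7* was 97.5 and 98.7 in WT and 160 and 203 in KO, a log2 difference of 0.88 (SE 0.39) that did not pass (limma adjusted p = 0.0951).

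MOZ is known for its part in haematopoietic stem cells and leukaemia fusions. *Kat6a* (chromosome 8, 22859442-22943259, plus strand) had 170 and 120 promoter-proximal reads in WT and 134 and 258 in KO, so that the genotypes overlapped and the 2 KO libraries differed from each other more than the WT libraries did. The log2 fold change was 0.38 (SE 0.33, limma adjusted p = 0.360), -0.18 relative to the median of active genes. In the gene body it had 5717 and 5264 reads in WT and 5852 and 5335 in KO, a log2 fold change of 0.03 (SE 0.11, limma adjusted p = 0.868). TIP60 is the acetyltransferase of the NuA4 complex and acts in DNA repair as well as transcription. *Kat5* (chromosome 19, 5603014-5611556, minus strand, overlapped by *Rnaseh2c* on the plus strand) had 389 and 504 promoter-proximal reads in WT and 484 and 407 in KO. Its log2 fold change of 0.003 (SE 0.30, limma adjusted p = 0.995) stood at -0.56 relative to the median of active genes. Its gene body reads were 659 and 790 in WT and 648 and 528 in KO, lower in both KO libraries, with a log2 fold change of -0.30 (SE 0.14, limma adjusted p = 0.0962).

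BRD2 and BRD3 bind acetylated H4 tails on transcribed chromatin. *Brd2* (chromosome 17, 34112019-34122814, minus strand, overlapped by *H2-DMa* on the plus strand) had 123 and 114 promoter-proximal reads in WT and 158 and 172 in KO. Both KO libraries lay above both WT libraries, with a log2 fold change of 0.47 (SE 0.33, limma adjusted p = 0.256), -0.09 relative to the median of active genes. Its gene body reads were 6646 and 7857 in WT and 6766 and 7280 in KO, a log2 fold change of -0.04 (SE 0.11, limma adjusted p = 0.795).

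*Brd3* (chromosome 2, 27445576-27507657, minus strand) had the largest gene body difference of the 9 genes. It had 3372 and 3271 gene body reads in WT1 and WT2, against 2522 and 2782 in KO1 and KO2, and the groups did not overlap. The log2 fold change was -0.33 (SE 0.11, limma adjusted p = 0.0194), which passed the adjusted p but not the fold of 0.6 on the log2 scale that a call also required. In either direction 39.1% of active genes passed the adjusted p in gene bodies. Relative to the median of active genes the change of *Brd3* was -0.24. With median-of-ratios scaling, which sets the median near 0, its log2 fold change was -0.25 and its adjusted p 0.0881 (limma). Without WT1 its adjusted p was 0.0775 and without KO1 it was 0.151 (limma). The promoter-proximal reads of *Brd3* were 687 and 815 in WT and 714 and 967 in KO, with overlap and a log2 fold change of 0.15 (SE 0.29, limma adjusted p = 0.686), -0.41 relative to the median of active genes. The gene body log2 ratio of *Brd2* over *Brd3* was 0.98 and 1.26 in WT and 1.42 and 1.39 in KO, higher in both KO libraries (exact permutation p = 0.333, adjusted p = 0.667).

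The active genes whose 8 log2 deviations from the WT mean, 4 libraries in 2 regions, were nearest to those of *Brd3* were *Sec24a* (Euclidean distance 0.12), *Nuf2* (0.14) and *Kctd6* (0.15). Their gene body log2 fold changes were -0.32, -0.40 and -0.35. Of the other 8 genes of the group the nearest was *Kat2b*, at a distance of 0.60 and rank 1247 among active genes. The most upstream annotated start of *Brd3* lies 32264 bp from the RefSeq start used for its sequence.

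Across the 9 genes, 2 were called up and 0 down in promoter-proximal windows, where 25.8% of active genes were called up and 2.2% down. The 5 genes *Ep300*, *Kat2a*, *Kat2b*, *Kat7* and *Brd2* had both KO libraries above both WT libraries, against 61.9% of active genes. The 9 had a median promoter-proximal change of 0.40 on the log2 scale, beside 0.56 over all active genes. In gene bodies, 0 of the 9 were called by limma, edgeR or DESeq2 (2 had an unadjusted p under 0.05 by limma), where 10.4% of active genes were called up and 11.4% down. Their gene body log2 fold changes ran from -0.33 to 0.16 with a median of -0.05, beside -0.09 over all active genes. *Crebbp*, *Kat5* and *Brd3* had both KO libraries below both WT libraries, against 42.8% of active genes. For the pausing index 0 of the 9 were called by limma (2 had an unadjusted p under 0.05), where 11.2% of active genes were called up and 0.543% down. In 7 of the 9, all but *Crebbp* and *Kat6a*, the pausing index was higher in both KO libraries, against 62.6% of active genes.

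**Figure D2:**
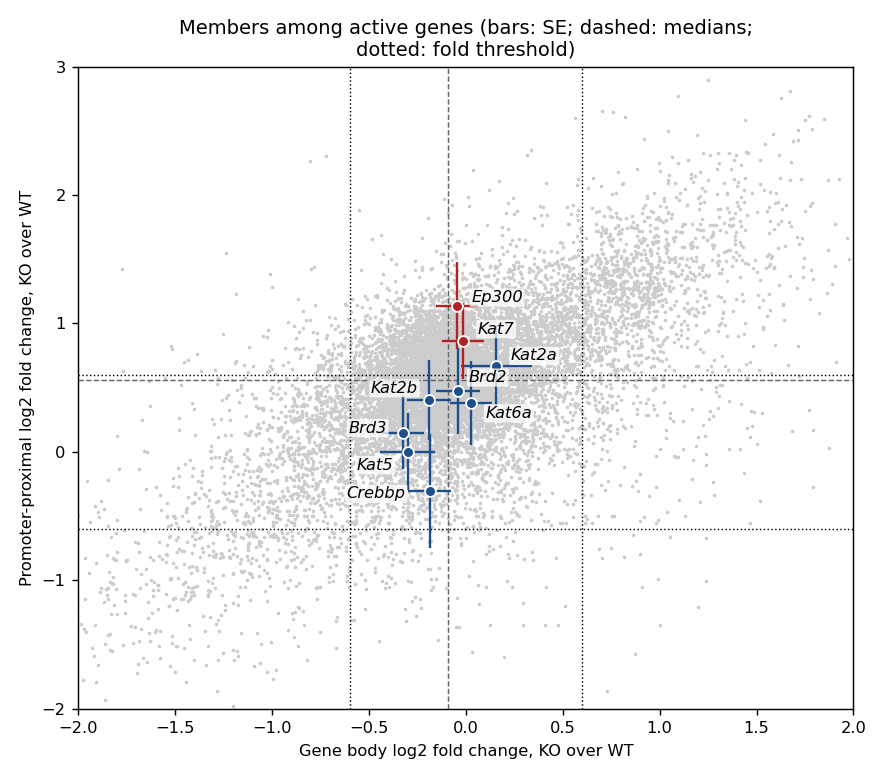
Gene body (x axis) and promoter-proximal (y axis) log2 fold change, KO over WT, of 12705 active genes (grey, 123 of them outside the axes) and of the 9 genes (red where called up in promoter-proximal windows, blue otherwise, with standard errors). Dashed lines mark the medians over active genes, 0.56 and -0.09, and dotted lines the fold threshold of 0.6. The 9 genes spread along the y axis from -0.31 to 1.14 and along the x axis only from -0.33 to 0.16.

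Both promoter-proximal calls depended on the scaling and on single libraries. With median-of-ratios scaling within promoter-proximal windows, the log2 fold change of *Ep300* was 0.57 (limma adjusted p = 0.162) and that of *Kat7* 0.30 (limma adjusted p = 0.394), and neither was called. The same scaling turned the sign of *Kat2b*, *Kat5*, *Kat6a*, *Brd2* and *Brd3* to negative, so that 3 of the 9 were above 0 instead of 8. Without WT1, WT2 or KO2, neither *Ep300* nor *Kat7* was called (limma). The log2 fold change of *Ep300* was 1.01 without WT1, 1.27 without WT2 and 1.24 without KO2 (adjusted p = 0.191, 0.128 and 0.0616), and that of *Kat7* was 0.86, 0.87 and 0.74 (adjusted p = 0.200, 0.241 and 0.119).

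**Figure D3:**
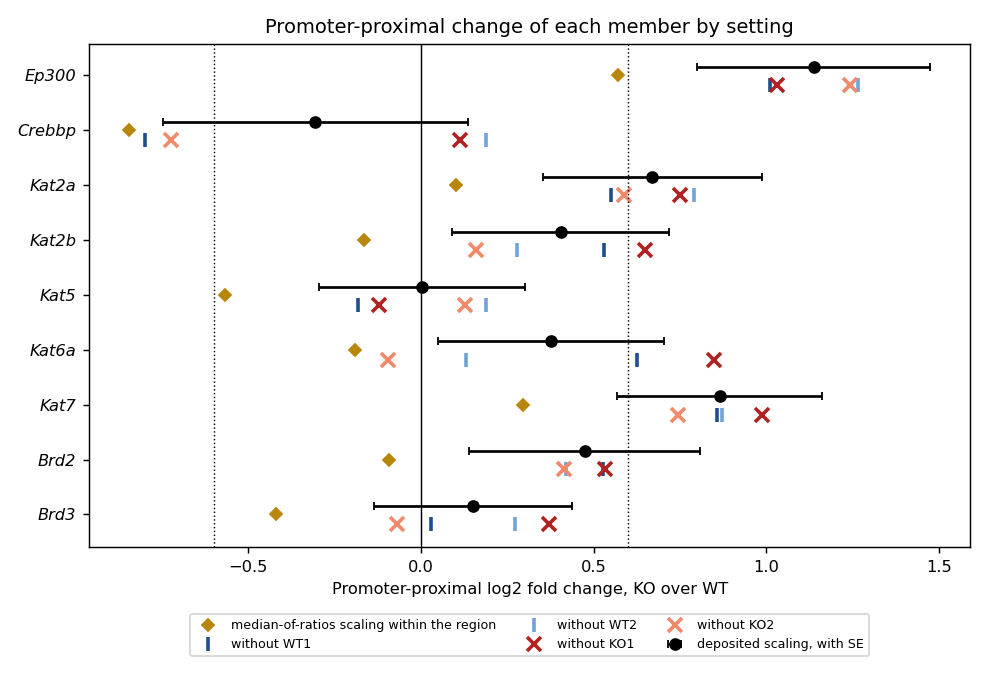
Promoter-proximal log2 fold change, KO over WT (x axis), of each gene with the deposited scaling (black, with its standard error), with median-of-ratios scaling within the region (gold) and with each library left out (coloured ticks and crosses). Dotted lines mark the fold threshold of 0.6. All settings shown keep *Ep300*, *Kat7* and *Kat2a* above 0, and the gold points lie about 0.56 to the left of the black ones.

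The other genes of the acetylation machinery were followed in 6 lists with 95 genes in all besides the 9, of which 90 were active. In promoter-proximal windows 23 of the 90 (25.6%) were called up and 0 down, with a median log2 fold change of 0.55. In gene bodies 2 (2.22%) were called up and 3 (3.33%) down, with a median of -0.11, where 10.4% and 11.4% of active genes were called. For the pausing index 10 (11.1%) were called up, where 11.2% of active genes were. The share called up in promoter-proximal windows was close to the 25.8% of all active genes, and fell to 2 of 90 with median-of-ratios scaling within the region (and 1 down). Over the 12705 active genes the same scaling left 634 called up and 942 down, against 3282 and 280 with the deposited scaling.

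Of the other acetyltransferases, which include the *Ncoa* coactivators and *Kat8*, 2 of 13 were called up in promoter-proximal windows, with a median of 0.53, and 1 down in gene bodies. Of the SAGA and ATAC subunits, the partners of GCN5 and PCAF, 7 of 23 were called up in promoter-proximal windows (median 0.57) and 0 in gene bodies (median -0.11). Of the TIP60 (NuA4) subunits 4 of the 15 active genes were called up in promoter-proximal windows (median 0.65) and 0 in gene bodies (median -0.11). Of the MOZ and HBO1 subunits 2 of 9 were called up in promoter-proximal windows (median 0.53) and 0 in gene bodies. For all 9 of the latter both KO libraries had fewer gene body reads than either WT library, from -0.43 to -0.08 on the log2 scale with a median of -0.18. Over all active genes 42.8% were so placed, and their median was -0.09. Over all lists together 46 of the 90 active genes were so placed, these 9 included. The median of the 9 subunits was -0.10 with median-of-ratios scaling, all 9 still below 0, as were 59 of the 90. Of the other bromodomain readers 7 of 32 active genes were called up in promoter-proximal windows (median 0.42), and 2 up and 1 down in gene bodies. Of the YEATS and double PHD finger readers 1 of 7 active genes was called up in promoter-proximal windows (median 0.17) and 1 down in gene bodies. Some genes stand in more than 1 list.

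**Figure D4:**
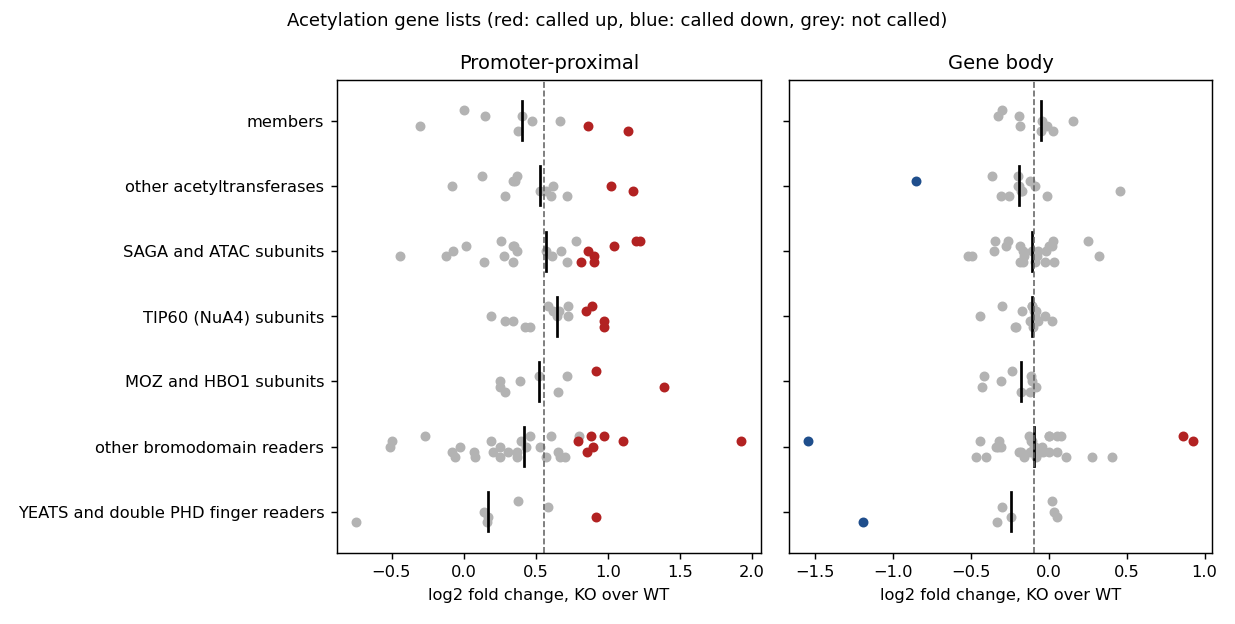
Promoter-proximal (left) and gene body (right) log2 fold change, KO over WT, of the active genes of each list, 1 point per gene, with the list median (black bar) and the median of all active genes (dashed). In gene bodies, 5 genes outside the 9 are called, at the ends of the reader and acetyltransferase lists.

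The 5 genes called in gene bodies were followed by library. *Cecr2*, a bromodomain subunit of a chromatin remodelling complex, had 4883 and 4027 gene body reads in WT and 1574 and 1468 in KO, a log2 fold change of -1.54 (SE 0.12, limma adjusted p = 4.0e-10). *Dpf3*, a double PHD finger subunit of BAF complexes, had 4813 and 4608 reads in WT and 2088 and 2038 in KO, a log2 fold change of -1.19 (SE 0.11, limma adjusted p = 5.3e-09). *Gtf3c4*, a subunit of the RNA polymerase III factor TFIIIC with acetyltransferase activity, had 1135 and 1263 reads in WT and 718 and 610.4 in KO, a log2 fold change of -0.85 (SE 0.13, limma adjusted p = 9.3e-06). The promoter-proximal reads of these 3 were not called. *Sp100*, an interferon-inducible protein of PML nuclear bodies, had 3502 and 3774 gene body reads in WT and 7480 and 6383 in KO, a log2 fold change of 0.93 (SE 0.11, limma adjusted p = 4.8e-07). It was the only one of the 5 called in both regions, with 79.2 and 46 promoter-proximal reads in WT and 193 and 279 in KO (log2 fold change 1.93, adjusted p = 1.9e-06 from limma). Its relative *Sp110* had 260.4 and 285 gene body reads in WT and 536 and 457 in KO, a log2 fold change of 0.86 (SE 0.15, limma adjusted p = 6.9e-05), with under 6 promoter-proximal reads in every library. The largest gene body change of the 9 genes, in *Brd3*, was -0.33. The gene body medians of the cell type markers were -1.14 for hepatocyte, -1.51 for erythroid, 0.71 for endothelial and 1.44 for stellate cell markers. They were 0.17 for Kupffer cell, 0.53 for lymphocyte and -0.25 for the active cholangiocyte markers. The part of the cell types in the 5 calls was not tested.

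Of the 2282 intergenic enhancers that the authors called from the reads pooled over the libraries, 51 were linked to 1 or more of the 9 genes. *Ep300* was the closest gene for 2 enhancers. That at chr15:81535546-81537365 ends 48849 bp before the TSS and is also listed in FANTOM5. That at chr15:81567642-81568999 ends 17215 bp before it and is not listed there. For *Kat6a* 1 enhancer was closest, and 2 lay within 50 kb. For *Brd3*, 1 lay within 50 kb, at chr2:27495884-27497794, with *Wdr5* as its closest gene. By the gene positions given above this region lies within *Brd3*, although it is in the authors' list of intergenic enhancers. It lies before the RefSeq start used for the *Brd3* sequence, 27475398 on the minus strand. The counted gene body of *Brd3* spans only 29093 bp, so the region need not lie within the transcript the authors used. The remaining 6 genes had 0 within 50 kb. By 4DGenome, a collection of published chromatin contacts, 53 links reached all 9 genes, from 1 for *Kat2a* to 9 each for *Ep300* and *Kat2b*, and 24 of them stayed on the chromosome of the gene. These contacts were measured in other cells, most often those labelled Th1 and ESC. The list holds no values of single libraries, and WT and KO were not compared at these enhancers here.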

How the data were processed

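PRO-seq was performed on 2 WT and 2 *Hdac3* KO libraries. The authors used cutadapt for trimming, Bowtie2 for alignment to mm10 and NRSA for counting per RefSeq transcript, after discarding ribosomal RNA and reads with a mapping quality under 10. The WT2 values were deposited as plain counts (factor 1). Those of the other libraries were deposited as signal, counts times 1.15 (WT1), 1.06 (KO1) or 1.52 (KO2), and densities as signal per bp. Dividing by the factor gave whole reads (within 0.001 reads) for 100% of 41640 values a library. The deposited enhancer list gives positions and other links in bp, with no value per library.

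Log2 of normalized reads plus 1 was compared with limma 3.58.1 (trend, empirical Bayes) under R 4.3.3, and p-values were adjusted by Benjamini-Hochberg over the 12705 active genes. A gene was called where the adjusted p was below 0.05 and the log2 fold change beyond 0.6 in either direction. Alternatives were pseudocounts of 0.1 and 10, no activity filter, other scalings, no fold threshold, a replicate block, each library left out, and edgeR 4.0.16 and DESeq2 1.42.0 on the recovered reads. Scripts were tested on simulated data. Gene positions are from a RefSeq gene list on GRCm38, and overlapping genes and most upstream starts are from GENCODE. All 9 genes are named, as are up to 8 other listed genes called in gene bodies with at least 50 reads and the 3 genes nearest to the gene of the 9 with the largest gene body change. *Rnaseh2c*, *H2-DMa*, *Gm23880* and *Wdr5* are named only as neighbours. The 9 genes and the lists were chosen with earlier results of these data known. ChIP-seq and other data of the study were not analysed here.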

Additional observations from a re-analysis of the deposited data

How the results depend on the processing

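With 2 libraries a group, exact permutation cannot give a two-sided p under 0.33, and limma borrows the spread from other genes. The promoter-proximal values of *Crebbp* rest on 10 to 26 reads a library. Region-wise median-of-ratios scaling moved the median promoter-proximal change of active genes by -0.56 and edgeR's TMM by -0.57, which sets the sign of small changes. Where a call or sign was lost under another setting, the cause was not tested.

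Over all active genes, promoter-proximal calls were 3562, against 0 without the activity filter, 1576 under region-wise median-of-ratios scaling and 1699 with edgeR and TMM. With DESeq2 they were 2818. Gene body calls were 2773, against 4968 without the fold threshold and 728 without the activity filter. Pausing index calls were 1490, against 1062 and 2509 with pseudocounts of 0.1 and 10. They were 0 without the activity filter and 14 under region-wise median-of-ratios scaling. Of the 9 genes, 2 were called in promoter-proximal windows. The number was 0 without the activity filter, under region-wise median-of-ratios scaling and with edgeR and TMM scaling, and 0 to 2 with a library left out. It was 2 with both pseudocounts, without the fold threshold, under median-of-ratios scaling by gene bodies, and with edgeR and DESeq2 at the deposited scaling. In gene bodies it was 1 (*Brd3*) without the fold threshold and 0 otherwise. For the pausing index it was 1 (*Ep300*) with a pseudocount of 10 and 0 to 2 with a library left out. Among the 90 other acetylation genes, promoter-proximal calls were 23, against 0 without the activity filter, 3 under region-wise median-of-ratios scaling, 3 with TMM, 15 with DESeq2 and 0 to 26 with a library left out. Gene body calls were 5, against 22 without the fold threshold, 2 without the activity filter and 5 to 8 with a library left out. Pausing index calls were 10, against 5 and 22 with pseudocounts of 0.1 and 10, 0 without the activity filter, 0 under region-wise median-of-ratios scaling and 0 to 39 with a library left out.

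The labels give WT and KO libraries the same replicate numbers. Deviations of WT1 and KO1 from their group means correlated at -0.11 in promoter-proximal windows and 0.02 in gene bodies, so the numbers were not taken as pairs. With the replicate block, 1 of the 9 genes (*Ep300*) was called in promoter-proximal windows and 0 in gene bodies or by the pausing index. Of the 90 other genes, 6 were then called in promoter-proximal windows, 5 in gene bodies and 1 by the pausing index. With the crossed pairing as block, added after seeing the data, the counts were 3, 0 and 2 of the 9 genes, and 34, 5 and 35 of the 90.

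Signs of genes that were not called turned under some settings. Under region-wise median-of-ratios scaling, the promoter-proximal log2 fold change was -0.16 for *Kat2b*, -0.57 for *Kat5*, -0.19 for *Kat6a*, -0.093 for *Brd2* and -0.42 for *Brd3*. The pausing index change was then -0.14 for *Kat2a*, -0.054 for *Kat2b*, -0.35 for *Kat5*, -0.30 for *Kat6a*, -0.13 for *Brd2* and -0.17 for *Brd3*. The gene body change was 0.034 for *Ep300*, 0.068 for *Kat7* and 0.039 for *Brd2*, the same as under median-of-ratios scaling by gene bodies. With edgeR and TMM the gene body change was 0.030 for *Ep300*, 0.066 for *Kat7* and 0.036 for *Brd2*, and the promoter-proximal change was -0.17 for *Kat2b*, -0.56 for *Kat5*, -0.18 for *Kat6a*, -0.088 for *Brd2* and -0.43 for *Brd3*. For *Kat5* it was -0.0029 with both edgeR and DESeq2 at the deposited scaling. With a library left out, promoter-proximal changes ran from -0.80 to 0.19 for *Crebbp*, -0.18 to 0.19 for *Kat5*, -0.094 to 0.85 for *Kat6a* and -0.068 to 0.37 for *Brd3*. Gene body changes ran from -0.12 to 0.020 for *Ep300*, -0.0026 to 0.32 for *Kat2a*, -0.040 to 0.093 for *Kat6a*, -0.063 to 0.037 for *Kat7* and -0.16 to 0.079 for *Brd2*. Pausing index changes ran from -0.68 to 0.44 for *Crebbp* and -0.19 to 0.89 for *Kat6a*. Of 126 promoter-proximal, 126 gene body and 99 pausing index values of single genes under the alternatives, 94, 109 and 85 kept direction and side of the threshold. These counts include alternatives that could not turn a sign. The fold changes were the same without the activity filter, with the replicate block and with the crossed pairing. Both median-of-ratios scalings were the same fit in gene bodies. The crossed pairing, added after seeing the data, is among the alternatives counted.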
